A study of Mus musculus with 20 samples.

Results

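The genes of the CXCR3 and CXCR6 chemokine axes were followed in 20 tumours of CT26, a mouse line from a BALB/c colon carcinoma. They are the CXCR3 ligand genes Cxcl9, Cxcl10 and Cxcl11, the receptor gene Cxcr3, the CXCR6 ligand gene Cxcl16 and the receptor gene Cxcr6. These 6 genes were taken by symbol from the 55335 genes of the deposited files, and all 6 were among the 13982 genes tested. Tumours came from CT26 cells with an empty vector, labelled control, or from cells labelled POLE-mutant, POLE being the catalytic subunit of DNA polymerase epsilon. The title of the series names CHEK2 instead, so the second cell line is called mutant here. Each cell line gave 5 tumours from mice that received PBS and 5 from mice that received anti-PD-1, an antibody that blocks an inhibitory receptor of T cells. The labels name no clone of the cells, no host strain or age, and no antibody clone, dose or time of collection. Whether the mutant cells are 1 clone is therefore unknown, and the mutation and any other difference of the cell lines cannot be told apart.

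CXCL9, CXCL10 and CXCL11 are small secreted proteins that interferon-gamma induces in macrophages, dendritic cells, tumour cells and stroma. They bind CXCR3, a receptor that activated T cells and natural killer cells carry, and in tumours they are known for drawing those cells in. CXCL16 is made as a membrane protein, mainly by macrophages and dendritic cells, and proteases release its soluble form. Its receptor CXCR6 is carried by activated and tissue-resident T cells and by natural killer T cells.

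In mm10 (GRCm38), the GENCODE vM21 annotation places the 3 CXCR3 ligand genes side by side on the minus strand of chromosome 5, within 44.1 kb. Cxcl9 (ENSMUSG00000029417) lies at chr5:92321347-92328079, Cxcl10 (ENSMUSG00000034855) at chr5:92346638-92348889 and Cxcl11 (ENSMUSG00000060183) at chr5:92359544-92365485. The annotation lists Cxcl11 as a polymorphic pseudogene, since the C57BL/6 mice of the reference genome carry a disrupted copy. The other genes lie apart, Cxcl16 (ENSMUSG00000018920) at chr11:70453983-70459984, Cxcr3 (ENSMUSG00000050232) at chrX:101731535-101734269 and Cxcr6 (ENSMUSG00000048521) at chr9:123806475-123811760. Promoter sequences of RefSeq (GRCm38.p6) were matched for 4 of the 6 genes, and those for Cxcl11 and Cxcl16 were not matched. The promoters of Cxcl9 and Cxcl10 are shown because these neighbours varied together from tumour to tumour (below) while Cxcl9 had the larger fold change in every comparison of 2 groups. Each sequence is the 250 bases before the start site, 5′ to 3′ on the gene's minus strand, from chr5:92328080-92328329 for Cxcl9 and chr5:92348890-92349139 for Cxcl10.
Cxcl9: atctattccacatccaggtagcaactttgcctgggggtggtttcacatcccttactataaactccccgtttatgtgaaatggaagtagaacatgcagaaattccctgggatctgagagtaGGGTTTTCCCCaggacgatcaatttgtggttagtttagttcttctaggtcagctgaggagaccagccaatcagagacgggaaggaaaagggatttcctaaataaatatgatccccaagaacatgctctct
Cxcl10: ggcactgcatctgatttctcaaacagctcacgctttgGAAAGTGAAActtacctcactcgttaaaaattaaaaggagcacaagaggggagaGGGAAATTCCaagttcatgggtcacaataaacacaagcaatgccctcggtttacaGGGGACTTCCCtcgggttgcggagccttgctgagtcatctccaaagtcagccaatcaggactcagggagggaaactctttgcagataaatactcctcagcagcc
Capitals mark matches on either strand to 3 motifs. The core of the interferon-stimulated response element (ISRE) is GAAA, any 2 bases and GAAA, the gamma-activated site (GAS) is TTC, any 3 bases and GAA, and the NF-kappaB site is GGG, any 5 bases and CC. Cxcl9 had a pair of overlapping NF-kappaB matches, from -130 to -121 and from -129 to -120 relative to the start site. Cxcl10 had an ISRE match from -213 to -204 and NF-kappaB matches from -159 to -150, from -104 to -95 and, overlapping the last, from -103 to -94. Neither window held a GAS match. Among 32851 promoter windows of the same length, 3.0% held the ISRE core, 7.0% the GAS motif and 45.8% the NF-kappaB motif. The window of Cxcr3 held 1 NF-kappaB match, and that of Cxcr6 held none of the 3 motifs. A match describes the letters only.

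Values are FPKM, fragments scaled by gene length and library size, 1 value per gene and tumour. Read depth is unknown, and a value of 0 is called listed at 0. Per library, 11182 to 13769 genes had at least 1 FPKM. Of the 20 libraries, 3 stood apart by their low mean Spearman correlation with the others: mutant anti-PD-1 replicates 1 and 2 at 0.748 and 0.835, and vector anti-PD-1 replicate 1 at 0.776. Tumours with identifiers of the form M and a number (11) and of a number alone (9) were told apart by a term in the fit, and the labels do not say what this identifier style marks. All 3 libraries that stood apart carry M identifiers, and the labels give no batch. Of the epithelial markers, Krt18 measured 6.85 to 22.6 FPKM in every tumour outside the mutant anti-PD-1 group and 0.573 to 7.26 in that group. Epcam, which marks most epithelia, did not exceed 0.840 FPKM in any tumour. The intestinal marker Cdx2 measured 0.227 to 0.863 FPKM in vector tumours and at most 0.0361 in mutant tumours, and Vil1 at most 0.342 FPKM in any tumour.

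In mutant tumours, all 6 axis genes rose with anti-PD-1, ligands and receptors alike (limma, Benjamini-Hochberg adjusted p under 0.05 over all genes tested; of these genes 30.5% passed and 15.9% rose). Cxcr6 changed by 3.42 on the log2(FPKM + 1) scale and Cxcl9 by 2.52. In vector tumours anti-PD-1 left 0 of the 6 past the threshold, and 0% of all genes tested, with Cxcl9 at 4.50 to 57.5 FPKM against 0.995 to 5.27 FPKM under PBS. There 3 of the 6 had an unadjusted p under 0.05 in limma, beside 426 of the 13982 genes tested. In mutant against vector tumours under PBS, Cxcl9 rose and was 1 of 6 past the threshold, where 1.45% of genes tested passed and 0.529% rose. Under anti-PD-1 all 6 were higher in mutant than in vector tumours, where 32.9% of genes tested passed and 17.8% were higher. The response to anti-PD-1 was larger in mutant than in vector tumours for Cxcl16, Cxcr3 and Cxcr6, 3 of 6, where 9.35% of genes tested passed and 7.4% had the larger response in mutant tumours. In bulk tumour RNA, fewer cells of a type and less RNA per cell cannot be told apart.

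Cxcl9, the most abundant of the 6 genes in the mutant anti-PD-1 group, measured 5.27, 1.18, 1.87, 1.13 and 0.995 FPKM in the vector PBS tumours (replicates 1 to 5) and 4.50, 10.6, 17.9, 57.5 and 19.4 FPKM with anti-PD-1. The mutant tumours measured 6.58, 28.5, 112, 35.4 and 15.6 FPKM with PBS and 65.6, 201, 168, 161 and 259.7 FPKM with anti-PD-1. Vector PBS tumours were the lowest group and mutant anti-PD-1 tumours the highest. All 5 mutant PBS tumours lay above all 5 vector PBS tumours, whereas 1 of 5 vector anti-PD-1 tumours lay within the vector PBS range. Means with SD (n = 5) were 2.09 ± 1.81 and 22.0 ± 20.7 FPKM in vector tumours and 39.5 ± 41.8 and 171 ± 70.7 FPKM in mutant tumours, with PBS and anti-PD-1 respectively.

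The antibody alone and the mutant alone gave Cxcl9 differences of like size from the same vector PBS tumours, and only that of the mutant passed the threshold. The log2 fold change was 3.30 ± 0.643 for mutant against vector under PBS (SE, limma, adjusted p = 0.0125) and 2.61 ± 0.643 for anti-PD-1 in vector tumours (adjusted p = 0.724, unadjusted p = 0.000709 in limma). In that second comparison 426 of the 13982 genes had an unadjusted p under 0.05 in limma and 0 passed after adjustment, while limma with sample weights called 5 genes, Cxcl9 among them at 3.06 (adjusted p = 0.00656). The comparisons share the vector PBS tumours. The vector anti-PD-1 and mutant PBS tumours overlapped, at 4.50 to 57.5 and 6.58 to 112 FPKM, and their difference was not tested. Adding anti-PD-1 to the mutant gave a Cxcl9 change of 2.52 ± 0.65 (adjusted p = 0.00718), and the groups overlapped in the mutant anti-PD-1 replicate 1 and the mutant PBS replicate 3. In M libraries alone this change was 1.98 and not past the threshold (limma, adjusted p = 0.25), nor was the 2.90 for mutant against vector under anti-PD-1 (adjusted p = 0.089). The response in mutant tumours minus that in vector tumours was -0.09 ± 0.914 (SE, adjusted p = 0.967 in limma), an interval that still leaves room for a difference of either sign. Within identifier styles, the Cxcl9 change of mutant against vector under PBS was 3.11 in M libraries (adjusted p = 0.531) and 3.58 in number-only libraries (adjusted p = 0.00638).

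**Figure D1:**
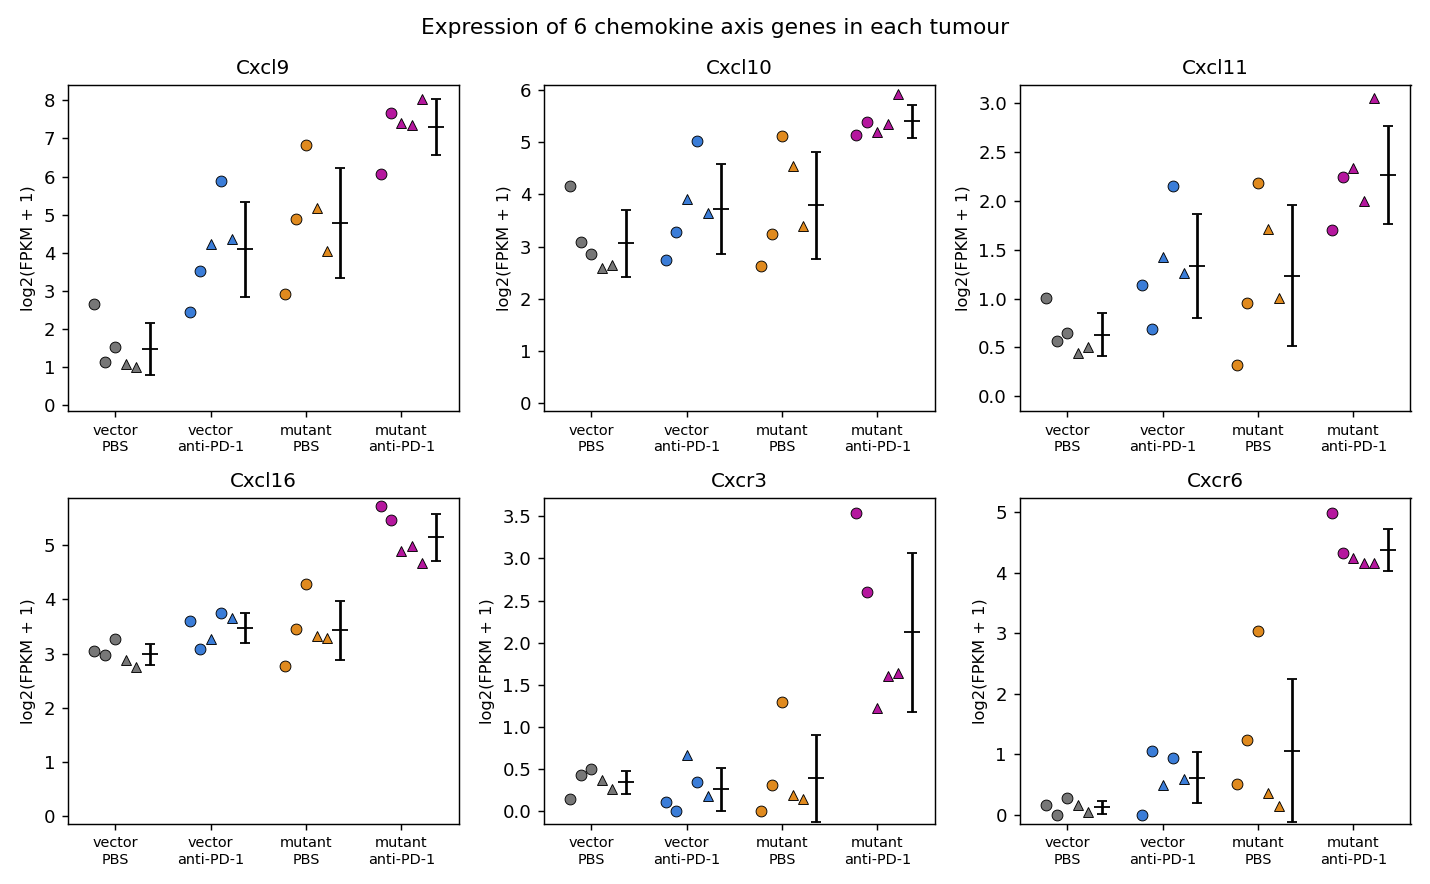
Level of each axis gene in each of the 20 tumours, as log2(FPKM + 1), by group; circles are tumours with M identifiers, triangles those with a number alone, and the bar at the right of each group is the mean ± SD of 5 tumours. Mutant anti-PD-1 tumours are the highest group for all 6 genes, and for each gene but Cxcr3 the means of the vector anti-PD-1 and mutant PBS groups lie between those of the outer groups.

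Cxcl10, which lies next to Cxcl9, measured 16.9, 7.46, 6.23, 4.99 and 5.30 FPKM in vector PBS tumours and 5.67, 8.68, 14.2, 31.7 and 11.5 FPKM in vector anti-PD-1 tumours. Mutant tumours measured 5.20, 8.46, 33.9, 22.4 and 9.54 FPKM with PBS and 34.3, 41.1, 35.5, 39.6 and 59.6 FPKM with anti-PD-1. The first 3 groups overlapped, and each mutant anti-PD-1 tumour lay above every other tumour. The gene thus started from a higher level than Cxcl9 in vector PBS tumours, 8.16 ± 4.95 against 2.09 ± 1.81 FPKM (SD, n = 5), and ended at a lower one in mutant anti-PD-1 tumours, 42.0 ± 10.2 against 171 ± 70.7 FPKM. Cxcl10 rose with anti-PD-1 in mutant tumours by 1.62 ± 0.457 on the log2 scale (SE, limma, adjusted p = 0.0127) and was higher in mutant than in vector tumours under anti-PD-1 by 1.68 ± 0.457 (adjusted p = 0.009). The first call was lost with a skeletal muscle term in the fit (1.48, limma, adjusted p = 0.052) and in M libraries alone (1.60, adjusted p = 0.172). The second was lost without the 3 libraries that stood apart (1.65, limma, adjusted p = 0.0524) and in M libraries alone (1.59, adjusted p = 0.163). The summed level of 8 muscle markers was 90.3 to 1596 FPKM in mutant anti-PD-1, 1.47 to 1061 in mutant PBS and 2.62 to 534 in vector anti-PD-1 tumours. For anti-PD-1 in vector tumours and for mutant against vector under PBS the Cxcl10 log2 fold changes were 0.66 and 0.72 (limma, adjusted p = 0.724 and 0.653).

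Cxcl11, the third ligand of CXCR3 and the scarcest, measured 1.0, 0.483, 0.562, 0.355 and 0.419 FPKM in vector PBS tumours and 1.20, 0.609, 1.69, 3.45 and 1.39 FPKM in vector anti-PD-1 tumours. Mutant tumours measured 0.250, 0.937, 3.54, 2.26 and 1.01 FPKM with PBS and 2.24, 3.72, 4.06, 2.99 and 7.27 FPKM with anti-PD-1. Every group overlapped its neighbour in level, in the order vector PBS, mutant PBS, vector anti-PD-1 and mutant anti-PD-1 by means. Cxcl11 rose with anti-PD-1 in mutant tumours by 1.01 ± 0.321 (SE, limma, adjusted p = 0.0244), and was 0.91 ± 0.321 higher in mutant than in vector tumours under anti-PD-1 (adjusted p = 0.037). These calls depended on single tumours, and both were lost with a skeletal muscle term (limma, adjusted p = 0.106 and 0.122). The first was lost without mutant PBS replicate 1, 2 or 5 or mutant anti-PD-1 replicate 2 or 5 (limma, adjusted p up to 0.0691). The second was lost without vector anti-PD-1 replicate 1, 2, 3 or 5 or mutant anti-PD-1 replicate 2, 3 or 5 (limma, adjusted p up to 0.0877). If the values are FPKM, a scale that divides by gene length, the 3 ligands can be set side by side. By group means Cxcl11 was below Cxcl9 and Cxcl10 in all 4 groups. The pseudogene Gm2673 shares 1582 of the 3794 exon bases of Cxcl11, and how reads of that stretch were assigned is not stated.

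Cxcr3, the receptor shared by these ligands, was at or under 0.585 FPKM in 14 of the 15 tumours outside the mutant anti-PD-1 group. It measured 0.109, 0.347, 0.412, 0.292 and 0.199 FPKM in vector PBS tumours and 0.0778, 0, 0.585, 0.268 and 0.136 FPKM in vector anti-PD-1 tumours. Mutant tumours measured 0, 0.243, 1.46, 0.139 and 0.109 FPKM with PBS and 10.6, 5.06, 1.34, 2.04 and 2.11 FPKM with anti-PD-1. Mutant PBS replicate 3 reached the level of the lowest mutant anti-PD-1 tumour. Among the mutant anti-PD-1 tumours, replicates 1 and 2 were the highest, and both are libraries that stood apart.

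The Cxcr3 change with anti-PD-1 was 1.82 ± 0.311 in mutant tumours (SE, limma, adjusted p = 0.000307) and -0.08 ± 0.308 in vector tumours (adjusted p = 0.923). The response was larger in mutant tumours by 1.90 ± 0.437 (SE, limma, adjusted p = 0.0127). Without the 3 libraries that stood apart, the change in mutant tumours was 1.14 (limma, adjusted p = 0.0071) and the difference of the responses was 1.18 and no longer passed (adjusted p = 0.067). Within identifier styles, the change in mutant tumours was 2.53 in M libraries and 1.32 in number-only libraries (limma, adjusted p = 0.00271 and 0.00162). Under anti-PD-1, Cxcr3 was 1.95 ± 0.311 higher in mutant than in vector tumours (SE, limma, adjusted p = 0.000154), and 1.23 without those libraries (adjusted p = 0.00483). Mutant against vector under PBS it differed by 0.05 ± 0.308 (adjusted p = 0.987).

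Several lists of cell markers, though not all, were highest in the same mutant anti-PD-1 tumours as Cxcr3. The summed level of 4 B cell markers was 7.74 and 6.89 FPKM in replicates 1 and 2 against 1.55 to 3.83 in the other 3. The summed level of 4 fibroblast markers was 824 and 529 FPKM in replicates 1 and 2 and 92.7 to 135 in the others, and that of 7 macrophage markers was 3333 and 2812 against 1312 to 1604 FPKM. The 8 T cell markers summed to 120.1 and 88.1 FPKM in replicates 1 and 2 and to 72.0 to 78.6 in the others. Endothelial markers summed to 117 and 84.7 against 28.9 to 35.9 FPKM, and natural killer cell markers to 46.1 and 40.1 against 26.7 to 37.2. Dendritic cell markers were highest in replicate 3 (14.3 FPKM). The neutrophil sum was higher in replicate 4 than in 2, and the skeletal muscle sum higher in 3 and 4 than in 1. Epithelial markers were lowest in replicates 1 and 2 (1.75 and 2.69 FPKM). The defining B cell gene Ms4a1 was low, at 0.0408 to 0.306 FPKM. The part of these cells in the Cxcr3 level was not tested.

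Cxcl16, the membrane-bound ligand, had the narrowest range of the ligands in relative terms. It measured 7.31, 6.86, 8.68, 6.35 and 5.69 FPKM in vector PBS tumours and 11.1, 7.46, 8.68, 12.5 and 11.7 FPKM in vector anti-PD-1 tumours. Mutant tumours measured 5.85, 9.99, 18.6, 9.07 and 8.72 FPKM with PBS and 52.2, 43.5, 28.7, 30.6 and 24.6 FPKM with anti-PD-1. The mutant anti-PD-1 tumours lay above all others, and the other groups overlapped. Means with SD (n = 5) were 6.98 ± 1.12, 10.3 ± 2.11, 10.4 ± 4.81 and 35.9 ± 11.5 FPKM, in the order of the groups above.

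Cxcl16 rose with anti-PD-1 in mutant tumours by 1.79 ± 0.222 on the log2 scale (SE, limma, adjusted p = 2.18e-05), against 0.49 ± 0.22 in vector tumours (adjusted p = 0.724). The difference of these responses was 1.30 ± 0.312 (SE, limma, adjusted p = 0.0158). It did not pass without the 3 libraries that stood apart (1.05, limma, adjusted p = 0.0936) or in M libraries alone (1.72, adjusted p = 0.0663). Under anti-PD-1, Cxcl16 was higher in mutant than in vector tumours by 1.74 ± 0.222 (SE, limma, adjusted p = 2.11e-05), and under PBS the value was 0.44 ± 0.22 (adjusted p = 0.49). Mutant anti-PD-1 replicates 1 and 2 were the highest in Cxcl16 as in the macrophage markers, of which 6 of 7 rose with anti-PD-1 in mutant tumours, against 15.9% of genes tested. The part of those cells in the Cxcl16 level was not tested.

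Cxcr6, the receptor of CXCL16, had the largest change of the 6 genes on the log2(FPKM + 1) scale with anti-PD-1 in mutant tumours, a scale that understates the change of low genes such as Cxcr3. It measured 0.112, 0, 0.208, 0.114 and 0.0285 FPKM in vector PBS tumours and 0, 1.07, 0.401, 0.924 and 0.513 FPKM in vector anti-PD-1 tumours. Mutant tumours measured 0.425, 1.34, 7.22, 0.277 and 0.102 FPKM with PBS and 30.7, 18.99, 17.9, 16.9 and 16.8 FPKM with anti-PD-1. Every mutant anti-PD-1 tumour was above every other tumour. Mutant PBS replicate 3 came next, above the rest of its group.

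The Cxcr6 change with anti-PD-1 was 3.42 ± 0.363 in mutant tumours (SE, limma, adjusted p = 8.83e-06), where the group mean went from 1.87 ± 3.03 to 20.3 ± 5.91 FPKM (SD, n = 5). It was 0.49 ± 0.359 in vector tumours (SE, limma, adjusted p = 0.724), where 1 tumour of each treatment is listed at 0. The difference of the responses was 2.93 ± 0.51 (SE, limma, adjusted p = 0.00374), and 2.80 without the 3 libraries that stood apart (adjusted p = 0.0297). It was not past the threshold in M libraries alone (2.54, limma, adjusted p = 0.085) or with a pseudocount of 0.1 (3.18, adjusted p = 0.0727). Mutant tumours had more Cxcr6 than vector tumours under anti-PD-1, by 3.86 ± 0.363 (SE, limma, adjusted p = 1.71e-06). Under PBS the value was 0.93 ± 0.359 (adjusted p = 0.285). All 8 T cell markers rose with anti-PD-1 in mutant tumours, against 15.9% of genes tested. Their summed level in vector tumours was 1.16 to 3.03 FPKM with PBS and 2.97 to 9.37 with the antibody. In mutant tumours it was 1.40 to 35.7 FPKM with PBS and 72.0 to 120.1 with the antibody. Of 3 tested natural killer cell markers, 3 rose in the same comparison (15.9% of genes tested), and their list summed to 1.02 to 17.6 FPKM in mutant PBS and 26.7 to 46.1 in mutant anti-PD-1 tumours. In vector PBS tumours Cd3d, Cd8a and Cd2 were each listed at 0 in 1 of 5.

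**Figure D2:**
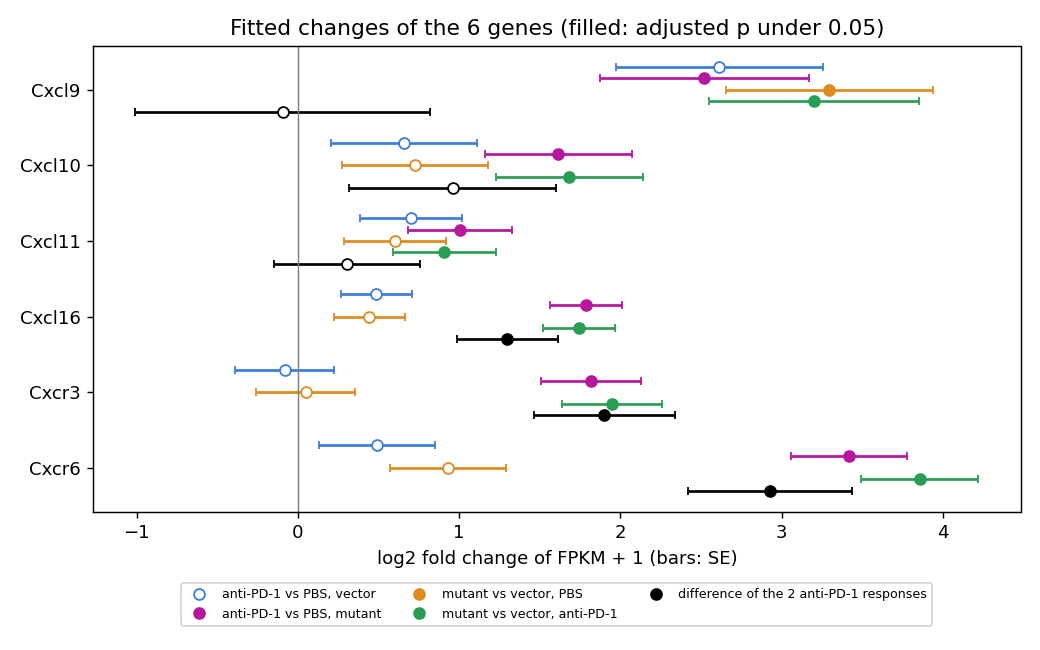
Fitted log2 fold change of FPKM + 1 (horizontal axis, bars are SE, 5 tumours a group) of each axis gene in the 4 comparisons of 2 groups and in the difference of the 2 anti-PD-1 responses; filled points have an adjusted p under 0.05 and open points do not. All 6 genes are filled in both comparisons that hold the mutant anti-PD-1 group, and Cxcl9 alone is filled for mutant against vector under PBS.

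Across the list, the median log2 fold change of the 6 genes was 1.80 with anti-PD-1 in mutant tumours, beside -0.10 over all genes tested. It was 1.85 for mutant against vector under anti-PD-1, beside 0.0022, and 0.66 under PBS, beside 0.0018. In vector tumours the median was 0.57 with anti-PD-1, beside -0.08. Groups that did not overlap were counted too. With anti-PD-1 in mutant tumours, 3 of the 6 genes (Cxcl10, Cxcl16 and Cxcr6) had all 5 tumours above all 5 PBS tumours, against 11.1% of genes tested. Under anti-PD-1, 5 of 6 did so for mutant against vector, all but Cxcl11, against 12.1%. Under PBS 1 of 6 did, Cxcl9, against 3.3%, and in vector tumours 0 of 6 with anti-PD-1, against 0.279%. Mutant PBS replicate 3 was the highest of its group in each of the 6 genes, and it also had the highest T cell marker sum of that group, 35.7 FPKM against 1.40 to 8.05 in the other 4. Its skeletal muscle marker sum was 1061 FPKM against 1.47 to 199 in the other 4. The part of these in its values was not tested.

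Ligand and receptor were then set against each other within each tumour, as a difference of log2(FPKM + 1). Over 6 such ratios and 4 comparisons, 24 two-sided exact permutation tests of 5 against 5 tumours were run. Each has 252 arrangements, so 0.00794 is the smallest p it can give. After Benjamini-Hochberg adjustment over the 24, 6 passed, each at that smallest p and an adjusted p of 0.0317. With a tumour left out, 4 of these 6 were lost for some tumours while the differences kept their sign. Cxcl9 minus Cxcr3 and Cxcr3 minus Cd3e for mutant against vector under PBS did not pass when mutant PBS replicate 3 was left out, or any of replicates 2 to 5 of the vector PBS group (exact permutation, adjusted p up to 0.0762 and 0.0816). Cxcl16 minus Cxcr6 and Cxcr6 minus Cd3e for anti-PD-1 in mutant tumours were lost without mutant anti-PD-1 replicate 2, 3, 4 or 5 (exact permutation, adjusted p = 0.0544). Without the 3 libraries that stood apart, 3 mutant anti-PD-1 tumours remain, too few for the exact test to pass the adjustment in practice. The differences were then -1.71 for Cxcl16 minus Cxcr6 and 0.95 for Cxcr6 minus Cd3e against mutant PBS, and -2.01 and 1.02 against vector anti-PD-1 tumours. Under PBS, Cxcl9 minus Cxcr3 and Cxcr3 minus Cd3e kept all their tumours and their differences of 3.25 and -0.49. They no longer passed either (exact permutation, adjusted p = 0.0635), because the adjustment spans all 24 tests.

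On the CXCR3 axis, Cxcl9 was higher relative to Cxcr3 in mutant than in vector tumours under PBS. Cxcl9 minus Cxcr3 was 2.5, 0.70, 1.02, 0.72 and 0.74 in vector PBS tumours and 2.92, 4.57, 5.52, 5.00 and 3.90 in mutant PBS tumours. The means differed by 3.25 (4.38 against 1.13, exact permutation p = 0.00794, adjusted p = 0.0317), and the groups did not overlap. Cxcr3 itself changed by 0.05 here, so the difference largely repeats the Cxcl9 change of 3.30 in limma. Likewise, anti-PD-1 in vector tumours changed Cxcl9 by 2.61 and Cxcr3 by -0.08. In vector anti-PD-1 tumours Cxcl9 minus Cxcr3 was 2.35, 3.53, 3.57, 5.53 and 4.16, a difference of 2.70 from vector PBS (exact permutation p = 0.0159, adjusted p = 0.0544). This difference passed in 5 of 14 alternatives and was not past the threshold in the other 9 (exact permutation, adjusted p up to 0.0816). It passed with a pseudocount of 0.1 (3.63, exact permutation, adjusted p = 0.0272), after median-of-ratios rescaling (2.74, adjusted p = 0.0272), as a plain ratio (adjusted p = 0.0476), and without vector PBS replicate 1 (3.04, adjusted p = 0.0423) or vector anti-PD-1 replicate 1 (3.07, adjusted p = 0.0476). Whether the mutant and the antibody differ in this ratio was not tested. In mutant anti-PD-1 tumours it was 2.52, 5.06, 6.17, 5.74 and 6.39, and the difference of 0.79 from mutant PBS was within the spread (exact permutation p = 0.357, adjusted p = 0.408). As a plain ratio, Cxcr3 had a median of 0.22 FPKM per FPKM of Cxcl9 in vector PBS tumours. With antibody in vector tumours the median was 0.0070, and in mutant tumours it was 0.0070 with PBS and 0.0127 with antibody. For Cxcl10 and Cxcl11 against Cxcr3, 0 of 8 comparisons passed after adjustment on the log2(FPKM + 1) scale, and 4 of 8 passed as plain ratios (exact permutation, adjusted p = 0.0476). The mean of Cxcr3 per Cxcl10 was 0.112 in mutant anti-PD-1 tumours, against 0.0179 in mutant PBS and 0.0151 in vector anti-PD-1 tumours. The medians were 0.0517, 0.0114 and 0.0118, and 0.0465 in vector PBS tumours. The mean of Cxcr3 per Cxcl11 was 0.117 in vector anti-PD-1 tumours, against 0.571 under PBS in the same cell line and 1.48 in the mutant with the antibody. The medians were 0.0777, 0.718 and 0.685. Mutant anti-PD-1 replicate 1, a library that stood apart, was far above its group medians, at 0.310 per Cxcl10 and 4.74 per Cxcl11. On the log2 scale the lowest p were those of Cxcl11 in vector PBS tumours against vector anti-PD-1 tumours (exact permutation p = 0.0238, adjusted p = 0.0714) and against mutant PBS tumours (exact permutation p = 0.0476, adjusted p = 0.127).

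On the CXCR6 axis, Cxcl16 was lower relative to Cxcr6 in mutant anti-PD-1 tumours than in mutant PBS tumours. Cxcl16 minus Cxcr6 was 2.26, 2.23, 1.25, 2.98 and 3.14 in mutant PBS tumours and 0.75, 1.15, 0.65, 0.82 and 0.52 in mutant anti-PD-1 tumours, with no overlap. The means were 2.37 and 0.78, a difference of -1.59 (exact permutation p = 0.00794, adjusted p = 0.0317). Against vector anti-PD-1 tumours, at 3.59, 2.03, 2.79, 2.81 and 3.06, the difference was -2.08 with the same p. Vector PBS tumours lay between 2.70 and 3.0. As a plain ratio, Cxcr6 per Cxcl16 was 0.437 to 0.684 in mutant anti-PD-1 tumours and 0.0117 to 0.388 in mutant PBS tumours. In vector tumours it was 0 to 0.143 with the antibody and 0 to 0.0240 with PBS. In the plain ratio, too, mutant anti-PD-1 tumours did not overlap the other groups.

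**Figure D3:**
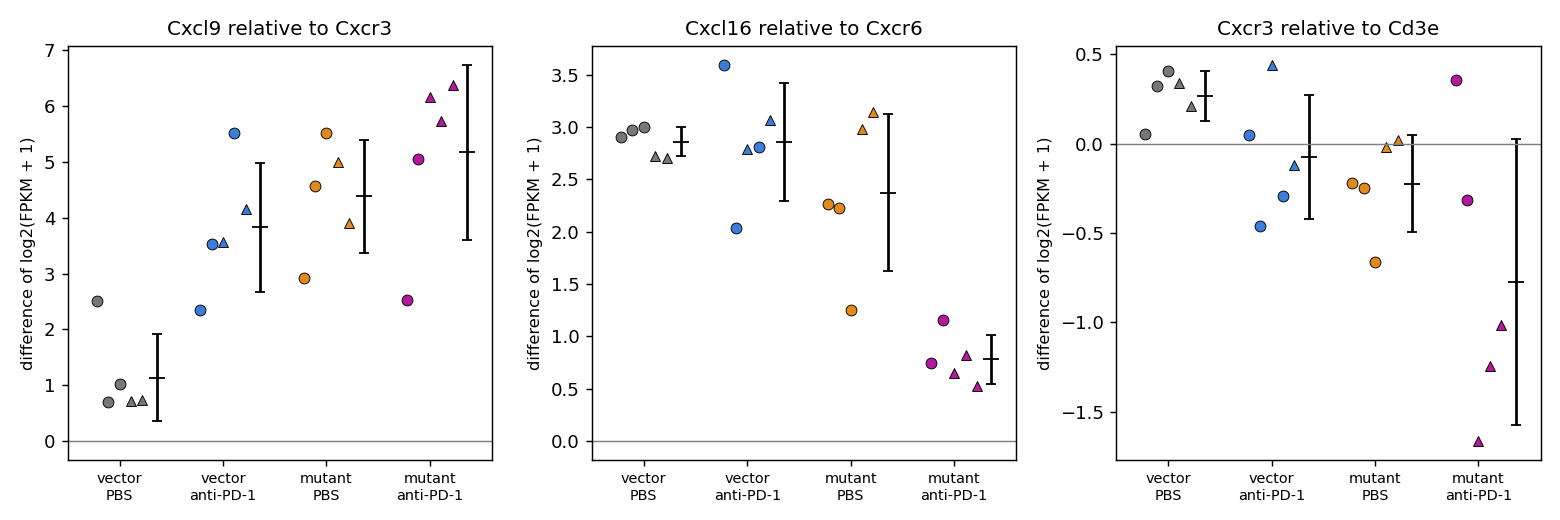
Difference of log2(FPKM + 1) between Cxcl9 and Cxcr3 (left), Cxcl16 and Cxcr6 (middle) and Cxcr3 and Cd3e (right) in each tumour by group, with circles for M identifiers, triangles for a number alone and the mean ± SD of 5 tumours at the right. The left panel has vector PBS tumours lowest at a mean of 1.13, and the middle panel has mutant anti-PD-1 tumours lowest at a mean of 0.78.

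The receptors were also set against Cd3e, a chain of the T cell receptor complex that all T cells carry. Cd3e measured 0.0199 to 0.0753 FPKM with PBS and 0.0420 to 0.551 FPKM with antibody in vector tumours. In mutant tumours it measured 0.0946 to 2.89 FPKM with PBS and 5.29 to 8.06 FPKM with antibody. Cxcr6 minus Cd3e was 0.29, 0.67, 1.08, 0.15 and 0.01 in mutant PBS tumours and 1.81, 1.41, 1.35, 1.31 and 1.5 in mutant anti-PD-1 tumours. The difference of the means was 1.04 (exact permutation p = 0.00794, adjusted p = 0.0317), and against vector anti-PD-1 tumours it was 1.20 with the same p. The pseudocount of 1 draws ratios of low values together. In plain FPKM, Cxcr6 per Cd3e was 2.71 to 3.81 in mutant anti-PD-1 tumours and 1.08 to 2.83 in mutant PBS tumours, which overlap (exact permutation p = 0.0238, adjusted p = 0.0476). It was 0 to 2.85 in vector anti-PD-1 and 0 to 5.76 in vector PBS tumours.

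Cxcr3 per Cd3e behaved otherwise in the same tumours. Among mutant anti-PD-1 tumours the plain ratio was 1.32, 0.774, 0.209, 0.329 and 0.400 in replicates 1 to 5, while Cxcr6 per Cd3e kept within 2.71 to 3.81. On the log2 scale, the Cxcr3 minus Cd3e difference of mutant anti-PD-1 from mutant PBS tumours was not past the threshold (-0.55, exact permutation p = 0.175, adjusted p = 0.233). Under PBS it was -0.49 for mutant against vector tumours (exact permutation p = 0.00794, adjusted p = 0.0317). In that comparison Cxcr3 itself changed by 0.05 (limma, adjusted p = 0.987). Cd3e measured 0.0199 to 0.0753 FPKM in vector PBS and 0.0946 to 2.89 FPKM in mutant PBS tumours, with no overlap. The difference thus largely repeats the higher Cd3e of mutant tumours. With Cd3e that low, the vector side is close to the level of Cxcr3 itself. As a plain ratio, Cxcr3 per Cd3e was 1.61 to 14.7 in vector PBS and 0 to 1.15 in mutant PBS tumours (exact permutation p = 0.00794, adjusted p = 0.0476).

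**Figure D4:**
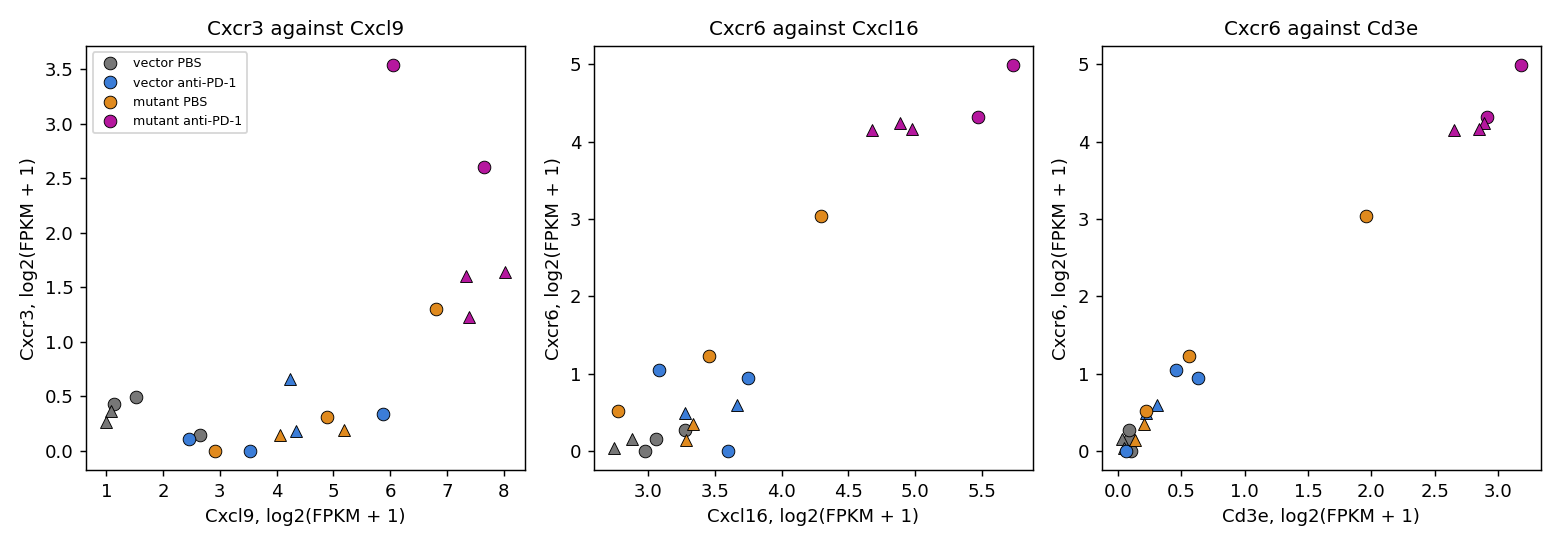
Cxcr3 against Cxcl9 (left), Cxcr6 against Cxcl16 (middle) and Cxcr6 against Cd3e (right), each axis log2(FPKM + 1) and each point 1 of 20 tumours, coloured by group, with circles for M identifiers and triangles for a number alone. On the left, vector anti-PD-1 and mutant PBS tumours spread along the Cxcl9 axis while most stay at or under 0.585 FPKM of Cxcr3. On the right, mutant anti-PD-1 tumours are highest in both genes, and vector tumours crowd near 0, at most 1.07 FPKM of Cxcr6 and 0.551 of Cd3e.

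The 19 genes of the pathway around these axes, chosen by role, are described next, and 18 of them were tested. With anti-PD-1 in mutant tumours 12 of 18 rose and 0 fell, against the 15.9% of genes tested that rose, and their median change was 0.72. Under anti-PD-1, 13 of 18 were higher in mutant than in vector tumours, against 17.8% of genes tested, with a median of 1.12. In the other 2 comparisons, mutant against vector under PBS and anti-PD-1 in vector tumours, 0 of 18 passed in limma, against 1.45% and 0% of genes tested. An unadjusted p under 0.05 in limma was found for 2 and 0 of 18, beside 1536 and 426 of all 13982 genes tested. The 2 of 18 are thus near the share over all genes. Of the inducers, Ifng, the interferon-gamma gene, was listed at 0 in 4 of 5 vector PBS tumours and measured 0.0342 to 1.41 FPKM in vector tumours with antibody. In mutant tumours it measured 0.190 to 4.45 FPKM with PBS and 5.10 to 9.17 FPKM with antibody. The Ifng change with anti-PD-1 in mutant tumours was 2.26 ± 0.325 (SE, limma, adjusted p = 6.72e-05), with no overlap between the groups. Tnf, a cytokine gene that acts with it, rose by 1.43 (limma, adjusted p = 0.000191).

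The receptor chain genes Ifngr1 and Ifngr2 changed by 0.65 and 0.42 in mutant tumours and did not pass (limma, adjusted p = 0.302 and 0.0837). Downstream, the kinase genes Jak1 and Jak2 rose by 0.78 and 0.62 (limma, adjusted p = 0.0241 and 0.0186). Socs1, an inhibitor of the same pathway, rose by 1.29 (limma, adjusted p = 0.03). Irf1, an interferon-induced transcription factor gene, changed by 0.64 (limma, adjusted p = 0.336), and its tumours overlapped at 7.85 to 63.5 and 21.3 to 118 FPKM. Tbx21, the T-bet gene that drives Cxcr3 in T cells, rose by 1.68 ± 0.202 (SE, limma, adjusted p = 1.67e-05), from 0 to 1.75 FPKM to 2.61 to 4.73 FPKM.

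Among genes that act on the ligands, Dpp4, a protease that trims CXCL9, CXCL10 and CXCL11, rose by 1.61 ± 0.34 in mutant tumours (SE, limma, adjusted p = 0.00183). Adam17, a protease that can release CXCL16 from the membrane, rose by 0.66 (limma, adjusted p = 0.011), and Adam10, its main releasing protease at rest, changed by 0.52 (adjusted p = 0.0733). Ackr3, an atypical receptor that takes up CXCL11, changed by -0.18 (limma, adjusted p = 0.629), and the platelet chemokine gene Pf4 by -0.13 (adjusted p = 0.91). Ackr1, another atypical chemokine receptor, was not tested because of low values and reached 8.25 FPKM in 1 mutant anti-PD-1 tumour. Of genes that carry the receptor signal, the G protein gene Gnai2 rose by 0.61, the beta-arrestin gene Arrb2 by 1.40 and the migration factor gene Dock2 by 1.92 (limma, adjusted p = 0.00661, 0.000336 and 3.03e-05). In the difference of the responses, 9.35% of genes tested passed and 7.4% had the larger response in mutant tumours. Of the pathway genes 7 of 18 passed, all larger in mutant tumours on the log2(FPKM + 1) scale: Ifng, Tnf, Tbx21, Dpp4, Adam17, Arrb2 and Dock2. For Ifng this depended on the scale, since vector PBS tumours had at most 0.0302 FPKM. By ratio of group mean FPKM, Ifng changed 82.8-fold in vector and 6.40-fold in mutant tumours. The others of these genes kept the larger ratio in mutant tumours.

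Tumours of the same group also varied, and the axis genes differed in which tumours were high. Pearson correlations of log2(FPKM + 1) after removing the group means are given as descriptions over the 20 tumours, whose points share library and cell content. Cxcl9 correlated with Cxcl10 at 0.916 and with Cxcl11 at 0.873, and Cxcl10 with Cxcl11 at 0.882. Cxcl9 and its receptor gene Cxcr3 correlated at 0.1, Cxcl16 and Cxcr6 at 0.666, and Cxcl16 and Cxcr3 at 0.769. The 5 tested genes most like each member were then taken by the same measure. For Cxcl9 they were Iigp1 at 0.983, Tgtp2, Irgm1, Gm43302 and Igtp, and for Cxcl10 Irgm1 at 0.96, Igtp, Serpina3g, Parp9 and Parp14. Cxcl11 was most like Sectm1a at 0.938, followed by Mov10, Parp12, Irgm1 and Cxcl10. Iigp1, Irgm1 and Igtp encode interferon-induced GTPases.

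The receptor genes and Cxcl16 had other partners. Cxcr6 was most like the T cell genes Cd8b1 at 0.989, Cd3e at 0.971, Cd3g, Cd27 and Trac. Without the 2 tumours in which Cxcr6 lay farthest from its group mean, the value for Cd8b1 was 0.966 and that for Cd3e 0.91. The genes most like Cxcr3 were Gstt1 at 0.966, Cidec, Tspan13, Bcam and Fam117a, none of them a T cell receptor gene, and without the 2 farthest tumours (mutant anti-PD-1 replicate 1 and mutant PBS replicate 3) the value for Gstt1 was 0.918. Cxcl16 was most like Gm2a at 0.953, Cd300c2, Cyp27a1, Cd48 and AB124611. Genes in a list of this kind are the highest of 13982, and families such as Tgtp2 can share reads with near-identical copies.

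Genes that overlap the members on the opposite strand bear on the values, because the counting is not stated to use strand and reads of a shared stretch cannot be told apart. Cxcl10 and Cxcl11 lie within the span of Art3, which shares 133 of the 2252 exon bases of Cxcl10 and 0 of the 3794 of Cxcl11. Art3 measured 0.114 to 0.954 FPKM outside the mutant anti-PD-1 group and 0.348 to 2.56 in it, too low for the test. The pseudogene Gm2673 shares 1582 exon bases with Cxcl11 and was listed at 0 in 19 of 20 tumours. Cxcr6 lies within the span of Fyco1 and shares 0 exon bases with it. Zmynd15 shares 552 of the 3021 exon bases of Cxcl16, and it rose with anti-PD-1 in mutant tumours by 1.34 ± 0.247 (SE, limma, adjusted p = 0.0006), from 1.24 to 3.76 FPKM to 4.81 to 9.91 FPKM. Its level stayed below that of Cxcl16 in every mutant anti-PD-1 tumour, and its part in the Cxcl16 values was not tested.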

How the data were processed

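Each deposited file gives a single value for every gene in 1 tumour. The header names no unit, and values were taken as FPKM because the submitters' processing notes name Cuffnorm, beside STAR 2.5, FastQC, DESeq and the mm10 build, with no roles given. For annotation, strandedness and scaling nothing is stated in those notes. The members and lists were chosen with earlier results of these data known. Named are the 6 members, 19 pathway genes and Cd3e, overlapping genes, the 5 genes most like each member, and cell type markers. The 13982 genes that reached 1 FPKM in 5 or more libraries were fitted as log2(FPKM + 1), which understates changes of low genes. limma 3.58.1 (R 4.3.3) with an intensity trend took all 20 libraries, 4 group means and the identifier style. Fits were tested on simulated data. Ratios were compared by exact permutation (Python 3.11.15). Nothing in the labels says whether tumours of a group came from separate experiments, so p-values measure the spread between these tumours. Low values gave no step from which reads could be recovered. Alternatives covered pseudocount, filter, style, trend, sample weights, scaling, groups fitted, muscle term and left-out libraries. Some genes of the lists are not reported here.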

Additional observations from a re-analysis of the deposited data

Results flagged for a closer look

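In groups of 5 tumours, 48 sets of values (6 genes and 6 within-tumour ratios in 4 groups) were searched for a tumour far from the other 4, and 5 were found, where chance flags about 1 in 20. Cxcr3 in mutant PBS replicate 3 stood above its group at 1.297 on the log2(FPKM + 1) scale. Cxcr6 in mutant anti-PD-1 replicate 1 stood above its group at 4.988, in 1 of the libraries that stood apart. Vector PBS replicate 1 stood above its group in Cxcl9 minus Cxcr3 at 2.5, in Cxcl10 minus Cxcr3 at 4.009 and in Cxcl11 minus Cxcr3 at 0.855. These 3 ratios share the Cxcr3 value of that tumour, which was the lowest of its group at 0.109 FPKM, and its ligand values were the highest of the group.

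On the log2(FPKM + 1) scale, the response to anti-PD-1 differed between mutant and vector tumours in 10 of the 24 axis and pathway genes tested (interaction term in limma, against 9.35% of genes tested). On that scale it was larger in mutant tumours in each. The interaction term also passed for 8 of 8 T cell, 3 of 3 natural killer cell and 6 of 7 macrophage markers. It passed for 1 of 3 dendritic cell, 1 of 4 neutrophil and 1 of 2 B cell markers. For endothelial and fibroblast markers 0 of 4 passed each, for skeletal muscle 0 of 8 and for epithelial markers 0 of 2. By ratio of group mean FPKM, the T cell marker Cd8a changed 14.4-fold in vector and 7.61-fold in mutant tumours. The rest of that list changed more in mutant tumours. Among the axis genes the difference was 1.30 for Cxcl16, 1.90 for Cxcr3 and 2.93 for Cxcr6. Of the pathway genes it was 1.75 for Ifng (limma, adjusted p = 0.0243), 1.07 for Tnf (adjusted p = 0.0473), 1.57 for Tbx21 (adjusted p = 0.00452) and 1.66 for Dpp4 (adjusted p = 0.0365). It was 0.87 for Adam17, 1.14 for Arrb2 and 1.92 for Dock2 (limma, adjusted p = 0.0409, 0.0439 and 0.00464). By ratio of group mean FPKM, Ifng changed more in vector tumours, 82.8-fold against 6.40-fold in mutant tumours. The other genes named kept the larger ratio in mutant tumours. The Cxcl16 and Cxcr3 calls were lost without the 3 libraries that stood apart, and the Cxcr6 call with a pseudocount of 0.1.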

How the results depend on the processing

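No paired analysis was possible because tumours were numbered only by accession and nothing pairs them. Read depth is unknown, so a level near 0 carries no counting interval. The Cxcl16, Cxcr3 and Cxcr6 calls for anti-PD-1 in mutant tumours, and for mutant against vector under anti-PD-1, held in each of 21 alternatives. Cxcl9 held in 20 of 21 in these comparisons and under PBS, lost in M libraries alone. Cxcl10 was lost in 2 of 21 alternatives in each anti-PD-1 comparison, and Cxcl11 in 8 and 13. Rescaling by median-of-ratios size factors moved the median of all genes by 0.112 for anti-PD-1 in mutant tumours and kept all 6 calls. Unless stated, the causes of the changes below were not tested.

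With sample weights, limma called 1 axis gene (Cxcl9) and 5 genes in all for anti-PD-1 in vector tumours, 5 axis genes and 2710 genes for mutant against vector under PBS, 6460 genes for anti-PD-1 in mutant tumours and 3214 genes for the difference of the responses. Fitting only the groups compared gave 924 genes for mutant against vector under PBS and 2343 under anti-PD-1. Without the 3 libraries that stood apart, 1643 genes passed under PBS, and 1 axis gene (Cxcr6) and 387 genes passed for the difference of the responses, while 0 of the ratios passed. With mutant anti-PD-1 tumours, too few remained to pass the adjustment in practice. Under PBS, Cxcl9 minus Cxcr3 and Cxcr3 minus Cd3e kept all their tumours and the same differences. Their adjusted p rose to 0.0635 (exact permutation) because the adjustment spans all 24 tests. A muscle term left 2674 genes for anti-PD-1 in mutant tumours. In M libraries alone, 3 axis genes (Cxcl16, Cxcr3 and Cxcr6) passed for anti-PD-1 in mutant tumours and 3 for mutant against vector under anti-PD-1, 0 axis genes and 12 genes passed under PBS, and 1 axis gene (Cxcr3) for the difference of the responses. Number-only libraries gave 1 gene for anti-PD-1 in vector tumours. Plain ratios, added after seeing the data, gave 12 of 24 comparisons past the threshold.

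Leaving out 1 tumour at a time gave 83 to 215 genes for mutant against vector under PBS (129 or fewer without one of vector PBS replicates 1, 2 and 3 or mutant PBS replicates 1, 2 and 4), 2754 to 4354 for anti-PD-1 in mutant tumours (2754 without mutant anti-PD-1 replicate 1), 688 to 2247 for the difference of the responses (849 or fewer without one of mutant anti-PD-1 replicates 1 and 2, mutant PBS replicates 1, 2 and 5 or vector PBS replicates 3, 4 and 5, and 2247 without vector anti-PD-1 replicate 1) and 4 to 9 ratios.

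Values that changed sign were not past a threshold before or after. Cxcr3 for mutant against vector under PBS was -0.21 with a pseudocount of 0.1, -0.10 with sample weights, -0.11 with a muscle term, -0.15 in number-only libraries and -0.14 to 0.19 leaving out single tumours. Cxcr3 for anti-PD-1 in vector tumours was 0.11 in number-only libraries and -0.26 to 0.0308 leaving out single tumours. For Cxcl9 the difference of the responses was 0.0288 without the 3 libraries that stood apart and -0.53 to 0.40 leaving out single tumours. Cxcl9 minus Cxcr3 was -0.84 for anti-PD-1 in mutant tumours and -0.39 for mutant against vector under anti-PD-1 with a pseudocount of 0.1, and, as the plain ratio Cxcr3 per Cxcl9 with its sign turned to match, -0.0367 and -0.0308. Cxcl16 minus Cxcr6 for anti-PD-1 in vector tumours was 0.10 after rescaling and -0.19 to 0.20 leaving out single tumours. Without the 3 libraries that stood apart, Cxcl10 minus Cxcr3 was 0.59 for anti-PD-1 in mutant tumours and 0.32 for mutant against vector under anti-PD-1, and Cxcl11 minus Cxcr3 was 0.12 for anti-PD-1 in mutant tumours. Leaving out single tumours, Cxcl10 minus Cxcr3 was -0.37 to 0.30 for anti-PD-1 in mutant tumours and -0.44 to 0.23 for mutant against vector under anti-PD-1. As a plain ratio, the difference in Cxcr6 per Cd3e was -0.484 for anti-PD-1 in vector tumours and -0.146 for mutant against vector under PBS.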
